A study of Mus musculus with 40 samples.

Results

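The 10 genes described here encode the transcription factor NRF2 (Nfe2l2), 8 enzymes or enzyme subunits that NRF2 is known to induce, and the autophagy adaptor p62 (Sqstm1). They were taken by symbol from the 43430 genes of a mouse RNA-seq count table, which holds 1 row for each, and all 10 passed the filter on low counts together with 11853 genes in all. Expression was measured in bone marrow derived macrophages (BMDMs), which are grown out of bone marrow in the presence of M-CSF. The number in each library title was read as the mouse, which no label states in words. On that reading, cells of 10 mice were used, 5 WT and 5 NDI1. The cells of each mouse were divided over 4 treatments, giving 40 libraries in 8 groups of 5. These were untreated cells, cells given lipopolysaccharide (LPS, 100 ng/ml ultra-pure, for 4 h), cells given 500 nM piericidin A, and cells given piericidin A 30 min before LPS.

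Piericidin A blocks mitochondrial complex I, the entry point of electrons from NADH into the respiratory chain. The drug does not act on NDI1, an NADH dehydrogenase of yeast mitochondria, so the NDI1 mice test whether an effect of the drug needs the block of that electron flow. NDI1 mice carried VAV-Cre and a lox-stop-lox-NDI1 construct in Rosa26, the WT mice carried VAV-Cre without that construct, and all were C57/Bl6 mice (the NDI1 line of mixed J and N substrains) of both sexes, 8 to 14 weeks old, with littermates as controls. The Vav promoter drives Cre in blood-forming cells from early stages on, so the cells had expressed NDI1 long before they were cultured, and the culture medium of all groups held methyl-pyruvate and uridine, which help cells with a blocked respiratory chain to grow. The NDI1 transcript itself was not analysed here.

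NRF2 is held at a low level by KEAP1, which recruits the CUL3 ubiquitin ligase to it. When reactive cysteines of KEAP1 are modified, NRF2 escapes degradation, pairs with a small MAF protein and binds antioxidant response elements, where the repressor BACH1 competes for the same sites. Its targets make glutathione, recycle thioredoxin and peroxiredoxin, break down heme and reduce quinones. In macrophages NRF2 is known for restraining inflammatory gene expression. Most of this control acts on the NRF2 protein, which these data do not measure, whereas the mRNA of Nfe2l2 and of its targets is what is described below.

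The libraries held between 6950748 and 13552070 counts (median 10361774). All 12 macrophage markers were detected, with a summed level of 22052 to 41819 CPM (counts scaled to library size with TMM factors) across the 40 libraries. The cells of 2 mice stood apart. The 10 neutrophil markers summed to 662 to 3307 CPM in the 4 libraries of WT mouse 496 and to 666 to 1174 CPM in those of NDI1 mouse 503, against 72.1 to 312.0 CPM in the other 8 mice. Fibroblast markers summed to 33.1 to 111.3 CPM in mouse 496, against 0.905 to 20.9 CPM in the other 8. B cell markers summed to 2.23 to 14.4 CPM in mouse 496 and 6.72 to 13.8 CPM in mouse 503, against 0.48 to 3.08 CPM. For dendritic cell markers the sums were 5.17 to 38.3 and 9.50 to 28.1 CPM, against 1.37 to 14.1 CPM. In RNA from whole cultures, fewer cells of a type and less RNA per cell cannot be told apart. Calls of members that rest on these mice are given with and without them.

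Promoter sequence from 250 bases before to 50 bases after a RefSeq start was at hand for 7 of the 10 genes, in 9 windows (build GRCm38.p6). The letters TGACNNNGC, the core of the antioxidant response element, were searched on both strands and were present in 12.4% of the 32851 promoter windows of the same length genome-wide. Among the members they occurred in windows of Nfe2l2, Gclm, Txnrd1, Prdx1 and Srxn1. Txnrd1 had 3 windows, of which 1 held a match, and no match lay in those of Nqo1 or Sqstm1. The 4 matches that lie upstream of a start are shown, because they belong to the NRF2 gene itself and to members of the glutathione and thioredoxin arms whose changes are described next. Capitals mark the match, 5′ to 3′ on the coding strand, and for Gclm, Txnrd1 and Prdx1 the element is on the opposite strand, so the capitals read as its reverse complement.
Nfe2l2, chr2:75704875-75704913, reverse strand: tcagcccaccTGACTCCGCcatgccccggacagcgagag
Gclm, chr3:122245403-122245451, forward strand: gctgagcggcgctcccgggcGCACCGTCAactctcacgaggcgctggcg
Txnrd1, chr10:82859094-82859142, forward strand: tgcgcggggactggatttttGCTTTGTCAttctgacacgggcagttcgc
Prdx1, chr4:116685446-116685494, forward strand: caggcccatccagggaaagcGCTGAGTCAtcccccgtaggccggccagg

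Counted from the start, the match begins at −240 for Nfe2l2, −134 for Gclm, −92 for Txnrd1 and −133 for Prdx1, while that of Srxn1 begins at 28, downstream of the start. The Prdx1 match overlaps an AP-1 site (TGANTCA, present in 7.81% of all windows) that begins at −131. Another AP-1 site of Prdx1 begins at −237, and Srxn1 has such sites at −102 and −45. The ATF4-C/EBP element (TGATGNAA, present in 3.97% of all windows) was found in none of the 9 windows. A match describes the letters and says nothing of binding in these cells.

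In mm10, the annotation places Nfe2l2 at chr2:75675513-75704641 and Sqstm1 at chr11:50199366-50210827, both on the reverse strand. The glutathione genes lie on the forward strand at chr9:77754535-77794485 (Gclc), chr3:122245557-122269984 (Gclm) and chr8:33652523-33698163 (Gsr), and the thioredoxin genes, also on the forward strand, at chr10:82859206-82897724 (Txnrd1), chr2:152105516-152111376 (Srxn1) and chr4:116685544-116700822 (Prdx1). Hmox1 is at chr8:75093591-75100596 on the forward and Nqo1 at chr8:107388225-107403206 on the reverse strand. Counts are of reads over exons. Exons of Sqstm1 share 580 bases with Mrnip on the other strand and those of Gclm share 540 bases with Gm17494 (other strand) and Gm6061 (same strand), so reads there are uncertain, since the strand setting of the counting is not given in the sources used here.

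Per kilobase of exon, the levels in untreated WT cells spanned a wide range. Sqstm1, the autophagy adaptor that also binds KEAP1, was highest at 574 ± 188 CPM per kb (SD, n = 5). Hmox1, the heme oxygenase, and Prdx1, a peroxidase of hydrogen peroxide, followed at 309.7 ± 90.2 and 307 ± 91.5 CPM per kb, which do not differ beyond their spread. Srxn1, the sulfiredoxin that repairs over-oxidized peroxiredoxin, stood at 82.6 ± 27.7, Nfe2l2 at 73.1 ± 8.58 and Txnrd1, the cytosolic thioredoxin reductase, at 54.0 ± 22.2 CPM per kb, with overlapping spreads. Gsr (glutathione reductase) and Gclm (the modifier subunit of the enzyme that starts glutathione synthesis) lay at 40.4 ± 11.1 and 37.2 ± 15.7, and Gclc, the catalytic subunit of that enzyme, at 12.8 ± 3.37 CPM per kb. Nqo1, the NADPH quinone reductase often used as a readout of NRF2, was lowest at 2.39 ± 0.504 CPM per kb, with 8 to 92 counts per library over all groups.

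**Figure D1:**
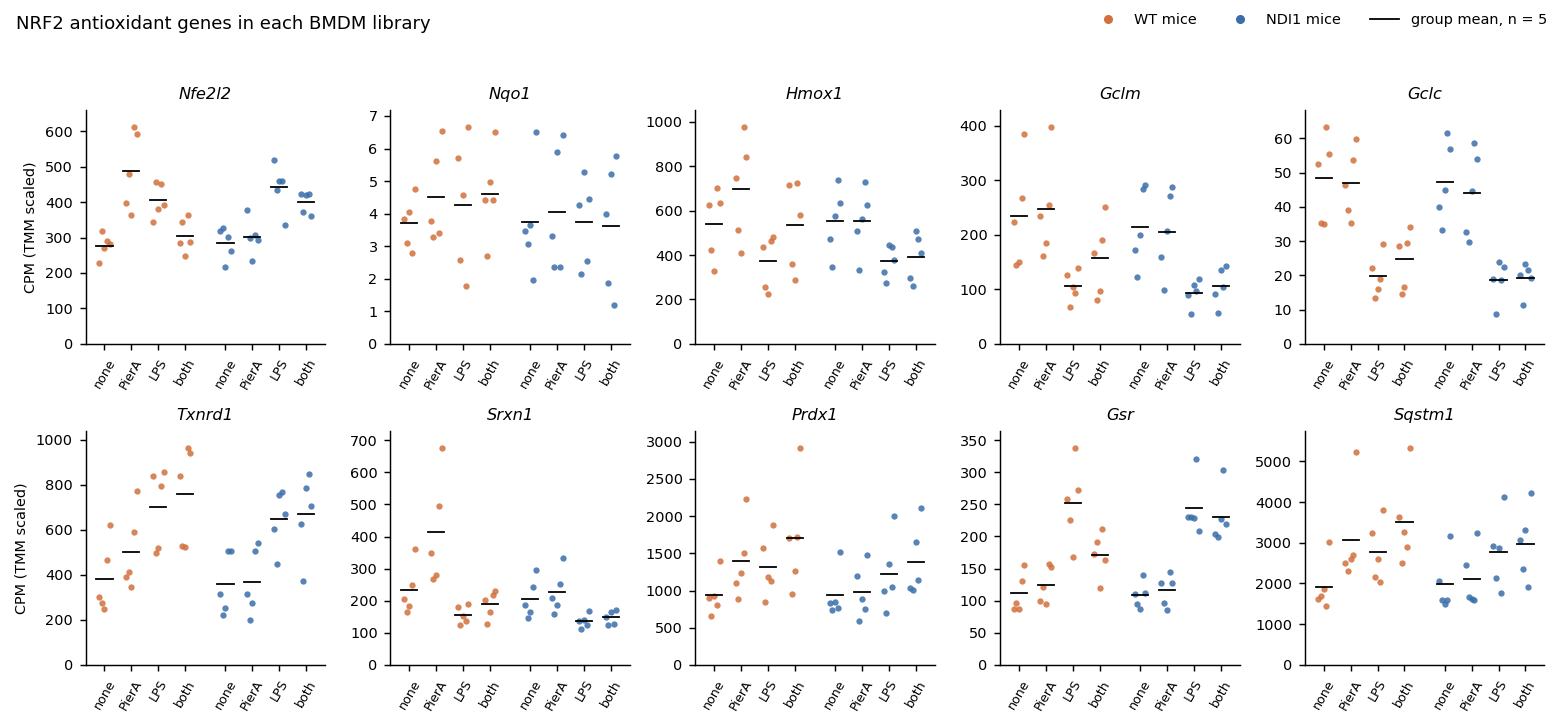
Level of each of the 10 genes in every library (TMM-scaled CPM, linear axis from 0), by genotype and treatment, with 1 point per mouse and a bar at the group mean. Nfe2l2 in piericidin A treated WT cells lies between 364 and 612 CPM, above all untreated WT cells (229 to 317 CPM), while the NDI1 points with and without the drug overlap.

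In untreated cells no member was called between NDI1 and WT. The largest difference was that of Srxn1, at −0.17 ± 0.23 (SE, adjusted p = 1) on the log2 scale, and percent called over all genes was 0 (edgeR quasi-likelihood test, 39 genes at an unadjusted p under 0.05). The Nfe2l2 levels were 229, 269, 281, 291 and 317 CPM in WT and 216, 263, 301, 317 and 327 CPM in NDI1. The 2 groups overlapped over most of their range, and the interval of the log2 difference ran from −0.25 to 0.33.

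LPS alone moved members in both directions, in WT and in NDI1 cells. In WT cells 3 of the 10 rose (Gsr, Txnrd1 and Nfe2l2) and 3 fell (Gclc, Gclm and Srxn1), against 62.5% of all tested genes called (31.5% higher and 31% lower), so the share of members called is close to the background. With the mouse as a block, which compares treatments within each mouse, 9 of 10 were called in WT (5 higher and 4 lower) and 9 in NDI1, against 72% and 72.4% of all genes. In NDI1 cells the same 6 genes were called, all 6 in the same directions, with 62.7% of all genes called (31.5% higher and 31.2% lower). The median log2 fold change of the 10 was 0.34 in WT and 0.19 in NDI1, against −0.0076 and −0.0057 over all tested genes.

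Marker genes of other cell types moved with LPS as well. The 10 neutrophil markers summed to 72.1 to 662 CPM (median 104.0) in untreated and 138 to 1418 CPM (median 192.8) in LPS-treated WT cells, and to 80.1 to 666 CPM (median 116.6) and 176 to 1146 CPM (median 217.8) in NDI1 cells, with 1 of 9 tested markers called as higher in each genotype (5 with the block). The 7 dendritic cell markers summed to 1.71 to 5.29 CPM untreated and 9.71 to 22.1 CPM with LPS in WT cells, and to 2.35 to 9.50 and 5.76 to 28.1 CPM in NDI1 cells, with 2 of 5 tested called as higher in each (Xcr1 and Dpp4). Of these 7, Cd209a was at 0 in all NDI1 libraries with LPS. The 5 T cell markers summed to 0.163 to 0.685 CPM untreated and 8.23 to 11.3 CPM with LPS in WT cells, and to 0.286 to 0.986 and 7.29 to 13.9 CPM in NDI1 cells. The only 1 of them that was tested, Lck, rose from 0.160 ± 0.154 to 10.1 ± 1.34 CPM in WT cells (SD, n = 5), while the defining Cd3d was at 0 in both WT groups and in NDI1 cells with LPS. Other lists had lower median sums with LPS. For the 5 B cell markers the median was 2.10 CPM untreated and 1.23 CPM with LPS in WT cells, against 2.08 and 0.945 CPM in NDI1 cells (0 of 4 tested called over groups). For the 6 mast cell and basophil markers it was 2.53 and 1.50 CPM in WT, against 2.92 and 1.29 CPM in NDI1 cells (0 of 2 called). Without mice 496 and 503, 5 of the 10 members were called with LPS in either genotype, against 59.9% of all genes in WT and 60.2% in NDI1. The part of RNA from other cells in the LPS changes was not tested.

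Nfe2l2 after LPS reached 345, 381, 391, 452 and 457 CPM in WT cells. All 5 values lie above the highest untreated WT value, a separation in either direction that 49.84% of all tested genes showed with LPS in WT cells and 47.95% in NDI1 cells, and each mouse rose by 0.48 to 0.63 on the log2 scale. The group difference was 0.55 ± 0.14 (SE, adjusted p = 0.00119). In NDI1 cells LPS gave 334, 435, 459.9, 461 and 519 CPM, again above every untreated NDI1 value, with a log2 fold change of 0.63 ± 0.14 (SE, adjusted p = 0.000228).

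Among the glutathione genes of the member list, Gclc and Gclm, for the first step of synthesis, fell and Gsr, for recycling, rose. Gclc, which makes the first glutathione precursor, fell from 34.9, 35.3, 52.6, 55.6 and 63.4 CPM in untreated WT cells to 13.3, 16.1, 18.9, 22.2 and 29.1 CPM with LPS, and the groups did not overlap. Its log2 fold change was −1.28 ± 0.26 (SE, adjusted p = 4.83e-05). Its partner subunit Gclm fell from 144, 149.8, 224, 267 and 384 to 67.6, 93.8, 104, 126 and 138 CPM, again without overlap, with a log2 fold change of −1.14 ± 0.32 (SE, adjusted p = 0.00246). Gsr, which regenerates reduced glutathione from its oxidized form, moved the opposite way, from 86.5, 87.5, 95.7, 131 and 155 CPM untreated to 168, 225, 259, 273 and 338 CPM with LPS. The lowest LPS value, that of mouse 453, was above the highest untreated value, and the log2 fold change was 1.18 ± 0.19 (SE, adjusted p = 1.73e-06). In NDI1 cells Gclc went from 33.2, 39.9, 45.0, 57.0 and 61.5 CPM to 8.81, 18.6, 18.9, 22.5 and 24.0 CPM with LPS, a log2 fold change of −1.35 ± 0.26 (SE, adjusted p = 2.44e-05). Gclm went from 122, 172, 199.6, 284 and 291 to 54.7, 89.9, 96.4, 108 and 118 CPM (−1.20 ± 0.32, adjusted p = 0.00162). For both, NDI1 mouse 460 was lowest with and without LPS, and the groups did not overlap. Gsr went from 86.5, 95.2, 111, 111 and 139.6 to 209, 228, 231, 231 and 320.4 CPM (1.17 ± 0.19, adjusted p = 2.26e-06), also without overlap, with mouse 503 highest in both groups.

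In the thioredoxin arm, Txnrd1 rose with LPS from 249, 276, 301, 465 and 620.4 to 499, 521, 793, 839.9 and 856 CPM in WT cells, and all 5 mice rose although the groups overlapped. The log2 fold change was 0.88 ± 0.29 (SE, adjusted p = 0.00909), and adjusted p was 0.0638 without WT mouse 449. In NDI1 cells Txnrd1 went from 222, 254, 316, 504 and 507 to 447, 605, 669.8, 756 and 766 CPM, a log2 fold change of 0.85 ± 0.29 (SE, adjusted p = 0.0116), with adjusted p = 0.0775 without NDI1 mouse 461. Srxn1 fell in both genotypes, from 165, 184, 206, 249 and 361 to 124, 136, 152, 179.7 and 189.6 CPM in WT cells. Again all 5 mice moved the same way and the groups overlapped. The log2 fold change of Srxn1 was −0.58 ± 0.23 (SE, adjusted p = 0.03) in WT, with adjusted p = 0.124 without mice 496 and 503, 0.11 without mouse 496 and 0.0875 without mouse 520. In NDI1 it was −0.60 ± 0.23 (SE, adjusted p = 0.0241), with adjusted p = 0.103 without mouse 503 and 0.0663 without mouse 521.

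Hmox1, Sqstm1 and Prdx1 each moved in 1 direction in all 5 WT mice without passing the test over groups. Hmox1 went from 329, 424, 624, 634 and 701 CPM to 223, 257, 437, 465 and 484 CPM with LPS in WT cells, a log2 difference of −0.54 ± 0.27 (SE, adjusted p = 0.0849). Each mouse was lower with LPS, with log2 ratios of −0.72 to −0.39, and with the mouse as a block adjusted p was 4.53e-07 in WT and 4.67e-07 in NDI1. Sqstm1 was at 2035, 2171, 2602, 3251 and 3801 CPM with LPS in WT, against 1437, 1631, 1682, 1858 and 3023 CPM untreated, higher in every mouse with overlapping groups. Its log2 difference (0.53 ± 0.27 in WT, adjusted p = 0.0936) was called as higher in the blocked fit (adjusted p = 4.91e-05 in WT and 0.000237 in NDI1). Prdx1 (0.50 ± 0.30 in WT, adjusted p = 0.154) was likewise called in that fit (adjusted p = 0.000725 in WT and 0.0142 in NDI1). Nqo1, at 2.78, 3.11, 3.83, 4.06 and 4.76 CPM untreated and 1.78, 2.56, 4.57, 5.72 and 6.66 CPM with LPS in WT cells, was called in no comparison of any fit. Its log2 fold change with LPS was 0.19, with an interval from −0.56 to 0.94. No member was called as differing between the genotypes in its response to LPS (percent called over all genes 0, with 63 genes at an unadjusted p under 0.05), and the log2 differences between the genotypes' LPS effects lay between −0.19 (Nqo1) and 0.088 (Nfe2l2). With LPS alone, no member was called between NDI1 and WT either (percent called 0, with 141 genes at an unadjusted p under 0.05), and the difference of Srxn1 was −0.20 ± 0.23 on the log2 scale.

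**Figure D2:**
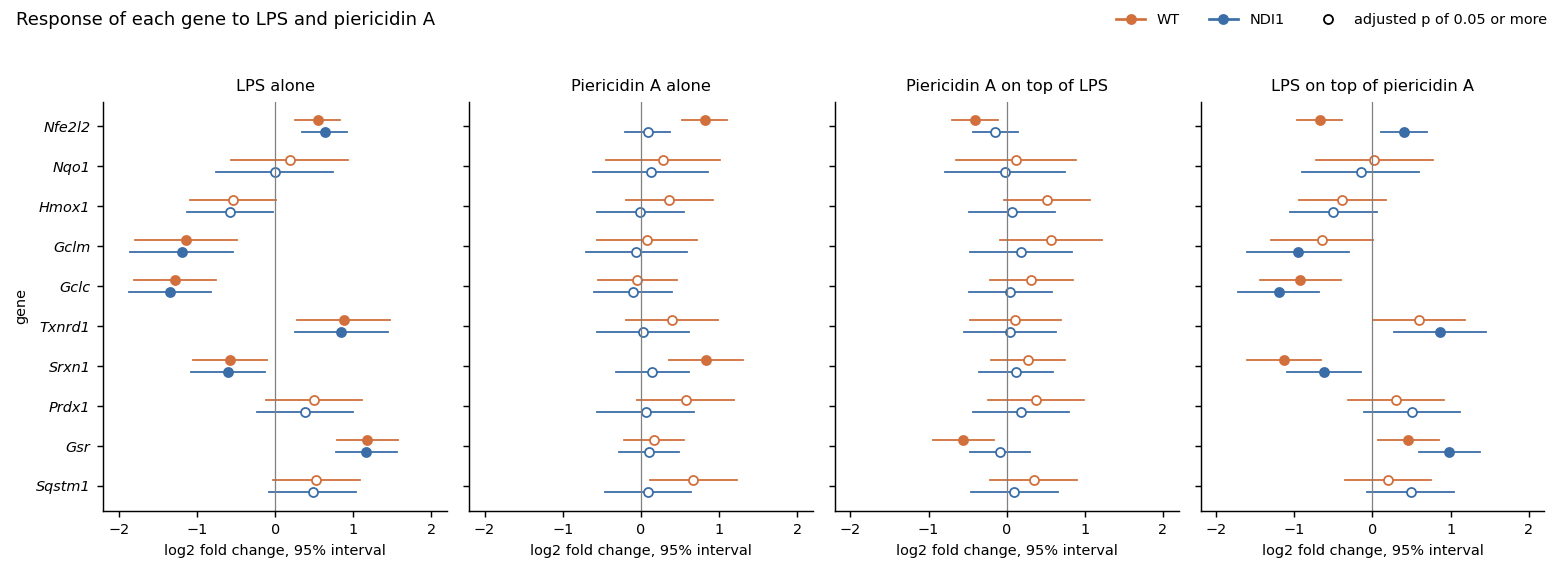
Log2 fold change of each member, with its 95% interval, for LPS alone, piericidin A alone, piericidin A on top of LPS and LPS on top of piericidin A, in WT and NDI1 cells; filled points have an adjusted p under 0.05. Estimates for LPS alone reach from 1.18 (Gsr, WT) to −1.35 (Gclc, NDI1), and those for piericidin A in NDI1 cells reach from −0.14 (Nfe2l2, under LPS) to 0.19 (Prdx1, under LPS).

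Piericidin A alone raised 2 of the 10 members in WT cells, Nfe2l2 and Srxn1, and lowered none, against 14.8% of all tested genes called (7.79% higher and 7.05% lower). In the fit with the mouse as a block, 6 of the 10 rose and none fell (Nfe2l2, Srxn1, Sqstm1, Prdx1, Hmox1 and Txnrd1), against 34.2% of all genes (17.2% higher). Without mice 496 and 503, the counts were 1 of 10, against 7.66% of all genes, and 5 of 10 with the block, against 22.8%. In NDI1 cells no member was called in either fit with the drug alone (percent called over all genes 0, with 58 genes at an unadjusted p under 0.05). The median log2 fold change of the 10 was 0.38 in WT and 0.072 in NDI1, against −4e-04 and 0.0024 over all tested genes.

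Nfe2l2 in WT cells reached 364, 396, 479, 592 and 612 CPM with piericidin A, against 229, 269, 281, 291 and 317 CPM without. No treated value reached down to the untreated range, a separation seen in either direction in 11.4% of all tested genes, and each mouse rose by 0.43 to 1.07 on the log2 scale. The log2 fold change was 0.82 ± 0.14 (SE, adjusted p = 0.000127), a 1.76-fold rise. In NDI1 cells the same treatment gave 232, 294, 299, 308 and 377 CPM. These values overlap the untreated NDI1 range almost fully, and the log2 fold change was 0.084 with an interval from −0.20 to 0.37.

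Srxn1 in WT cells reached 269, 280.3, 349, 495 and 676 CPM with piericidin A, against 165, 184, 206, 249 and 361 CPM untreated. The groups overlap because mouse 520 was already high when untreated, yet each of the 5 mice rose, by 0.61 to 0.99 on the log2 scale. The log2 fold change was 0.83 ± 0.23 (SE, adjusted p = 0.0131), with adjusted p = 7.57e-06 in the blocked fit. Without mouse 496, whose neutrophil markers are high, it was 0.78 with adjusted p = 0.0778. In NDI1 cells Srxn1 was at 159, 187, 208, 252 and 334 CPM, and all 5 mice were higher than untreated by only 0.064 to 0.19 on the log2 scale, with a fitted difference of 0.14 ± 0.23 (SE, adjusted p = 1).

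The other 4 genes called in the blocked fit were higher with piericidin A in every WT mouse, while their groups overlapped. Sqstm1 went from 1437, 1631, 1682, 1858 and 3023 to 2296, 2508, 2599, 2693 and 5230.0 CPM. Mouse 520 was highest in both groups, and within mice the log2 difference was 0.45 to 0.91. The fitted log2 fold change was 0.67 ± 0.27 (SE, adjusted p = 0.0945), and adjusted p in the blocked fit was 2.45e-05. Prdx1 went from 654, 800.0, 896, 929.7 and 1395 to 881, 1102, 1232, 1501 and 2235 CPM, with 0.57 ± 0.30 on the log2 scale and adjusted p = 0.213, or 0.000989 with the block. Hmox1 went from 329, 424, 624, 634 and 701 to 408, 515, 749, 839.9 and 977 CPM, with 0.36 ± 0.27 and adjusted p = 0.398, or 0.0014 with the block. In both cases the groups overlapped, and the log2 difference within mice was 0.30 to 0.91 for Prdx1 and 0.26 to 0.48 for Hmox1. Txnrd1 had a log2 fold change of 0.39 ± 0.29 (adjusted p = 0.388, or 0.0185 with the block). That last call was lost in the blocked fit without mice 496 and 503. In NDI1 cells the log2 ratios within mice fell on both sides of 0 for all 4: −0.0009 to 0.25 for Sqstm1, −0.33 to 0.52 for Prdx1, −0.057 to 0.10 for Hmox1 and −0.16 to 0.10 for Txnrd1. Gclc was lower in all 5 NDI1 mice, with log2 ratios of −0.28 to −0.014, and was not called in either fit. In WT cells no difference was detectable for the glutathione genes and Nqo1: the intervals of the log2 fold change ran from −0.55 to 0.46 for Gclc, −0.57 to 0.72 for Gclm, −0.22 to 0.55 for Gsr and −0.45 to 1.01 for Nqo1.

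Marker RNA of other cell types also differed with piericidin A in WT cells, with the highest neutrophil marker sums in mouse 496. The median log2 fold change of the 9 tested neutrophil markers with piericidin A in WT was 1.35, with 0 of 9 called over groups and 6 of 9 called as higher with the block. The summed level of the 10 markers was 72.1 to 662 CPM (median 104.0) in untreated and 101 to 1933 CPM (median 124.1) in treated WT cells. The highest sum of each WT group was that of mouse 496. In the 8 mice other than 496 and 503, of both genotypes, it was 72.1 to 312.0 CPM under all treatments. A fold change of these markers without mouse 496 is not given. With LPS the sum was 138 to 1418 CPM without and 181 to 3307 CPM (median 242.2) with the drug, and again 0 of 9 was called over groups. None of the 10 was at 0 in all libraries of a group. The 6 mast cell and basophil markers summed to 1.27 to 3.74 CPM (median 2.53) untreated and 2.71 to 8.05 CPM (median 6.66) with piericidin A in WT cells, against 2.36 to 5.05 (median 2.92) and 2.51 to 5.74 CPM (median 3.11) in NDI1 cells, with 0 of 2 tested called over groups and 1 called as higher with the block in WT. Under LPS the 6 fibroblast markers summed to 1.56 to 64.2 CPM (median 3.33) without and 2.17 to 111.3 CPM (median 8.33) with the drug in WT cells, against 0.988 to 13.1 (median 5.16) and 1.22 to 12.99 CPM (median 4.45) in NDI1 cells, with 0 of 4 tested called over groups and 1 called as higher with the block in WT. Nfe2l2 was also called with piericidin A in WT without mice 496 and 503. The part of RNA from other cells was not tested for any of these changes.

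**Figure D3:**
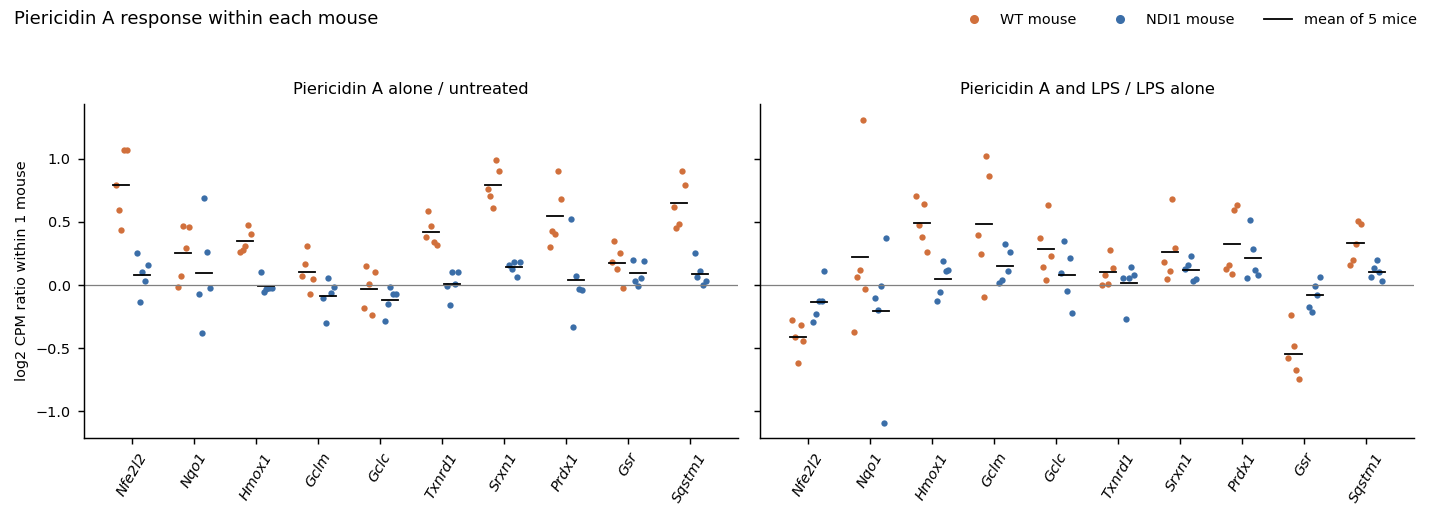
Log2 ratio of piericidin A to no drug within each mouse, for the 10 members, without LPS and under LPS; each point is 1 mouse, WT or NDI1, and each bar the mean of 5 mice. Without LPS the WT points of Nfe2l2 lie between 0.43 and 1.07 and the NDI1 points between −0.13 and 0.25, whereas under LPS the WT points of Nfe2l2 are all below 0 (−0.62 to −0.27).

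Comparing the genotypes directly under piericidin A, Nfe2l2 was lower in NDI1 than in WT cells (−0.69 ± 0.14, adjusted p = 0.00134 on the log2 scale), and so was Srxn1 (−0.86 ± 0.23, adjusted p = 0.0158). These were 2 of the 10 members, against 7.8% of all tested genes called (3.48% higher and 4.31% lower), and the comparison shares its WT libraries with the one above. The Srxn1 call was lost without mice 496 and 503 (adjusted p = 0.104), and without any 1 of mice 460, 461, 496 and 520 (adjusted p from 0.0621 to 0.0904). The test of the difference itself, the piericidin A effect in NDI1 minus that in WT, gave −0.73 ± 0.20 (SE, adjusted p = 0.0603) for Nfe2l2 over groups, with no member called (percent called over all genes 1.27, with 1.1 lower in NDI1 and 0.169 higher). With the mouse as a block it called 3 members, against 8.96% of all genes: Nfe2l2 (−0.72, adjusted p = 0.00127), Srxn1 (−0.67, adjusted p = 0.0127) and Sqstm1 (−0.56, adjusted p = 0.0169). Of these, 1 was called (Nfe2l2, adjusted p = 0.0365) without mice 496 and 503, against 3.33% of all genes in that fit.

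Under LPS the drug's effect on Nfe2l2 had the opposite sign. In WT cells given both agents Nfe2l2 was at 249, 285, 288, 344 and 362 CPM, against 345, 381, 391, 452 and 457 CPM with LPS alone. The groups overlapped by 1 library of each, and every mouse was lower, with log2 ratios of −0.62 to −0.27. The log2 fold change was −0.41 ± 0.14 (SE, adjusted p = 0.0456), and adjusted p was 0.00226 with the block. The call over groups lies near the threshold and was lost on leaving out any of the 5 WT mice (adjusted p from 0.0647 without mouse 449 to 0.137 without mouse 520), and NDI1 mice 460 or 503. In NDI1 cells given both, Nfe2l2 was at 361, 371, 421, 422 and 424 CPM, inside the range of NDI1 cells given LPS alone, and the log2 fold change of −0.14 had an interval from −0.43 to 0.14.

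Read the other way, LPS raised Nfe2l2 without the drug and lowered it with the drug in WT cells. LPS on top of piericidin A gave a log2 fold change of −0.68 ± 0.14 (SE, adjusted p = 0.000133), and no value with both agents reached those with piericidin A alone (364, 396, 479, 592 and 612 CPM), as in 31.34% of all tested genes in either direction. The amount by which piericidin A altered the response to LPS in WT was −1.22 ± 0.20 (SE, adjusted p = 0.000208), and Nfe2l2 was the only member called over groups (4.75% of all genes, 2.59% higher and 2.16% lower). In NDI1 cells LPS on top of piericidin A raised Nfe2l2 (log2 fold change 0.40 ± 0.14, adjusted p = 0.0142), and the response to LPS was altered by −0.23 with an interval from −0.64 to 0.18 (percent called over all genes 0, with 78 genes at an unadjusted p under 0.05). The 2 WT effects share libraries with the comparisons above and are not independent of them. The call in NDI1 was lost without mouse 461 (adjusted p = 0.0926).

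Gsr was the second gene that fell with piericidin A under LPS in WT cells, where it went from 168, 225, 259, 273 and 338 CPM with LPS alone to 120.4, 163, 173, 191 and 212 CPM with both. Each of the 5 mice was lower, and the groups overlapped because mouse 453 was low with LPS alone. Its log2 fold change was −0.55 ± 0.19 (SE, adjusted p = 0.041), with adjusted p = 0.000184 in the blocked fit, a call over groups lost without any 1 of mice 447, 449, 496, 520 and 521 (adjusted p from 0.0528 to 0.137). In NDI1 cells given both agents Gsr was at 199, 204, 219, 228 and 303 CPM, with a log2 fold change of −0.08 against LPS alone. The genotype difference in this effect was called with the block (0.46, adjusted p = 0.0438) and not over groups (adjusted p = 0.444). In the fit with the block it was lost on leaving out either pair of mice, 496 and 503 or 520 and 521.

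Over all 10 members, piericidin A under LPS lowered 2 and raised none in WT cells over groups, against 16.7% of all genes called (8.92% lower and 7.81% higher), and with the block it lowered 2 and raised 4 (Hmox1, Gclm, Sqstm1 and Prdx1), against 34.5% (15.6% higher and 18.9% lower). Without mice 496 and 503 it changed 0 over groups, against 8.07% of all genes, and with the block 2 in each direction, against 22.4%. The rises of Hmox1 (adjusted p = 0.00137) and Gclm (adjusted p = 0.0362) were called in that blocked fit, and those of Sqstm1 (adjusted p = 0.0841) and Prdx1 (adjusted p = 0.213) were lost. In NDI1 cells no member was called in either fit (percent called 0, with 127 genes at an unadjusted p under 0.05). Within NDI1 mice, the log2 ratios were 0.019 to 0.33 for Gclm, 0.034 to 0.23 for Srxn1, 0.058 to 0.52 for Prdx1 and 0.029 to 0.20 for Sqstm1. Neither fit called any of these, and the share of all genes that rose in every mouse was not computed. Hmox1 in WT cells went from 223, 257, 437, 465 and 484 CPM with LPS alone to 290.0, 358, 580.0, 715 and 724 CPM with both, higher in all 5 mice by 0.26 to 0.71 on the log2 scale. The groups overlapped widely, and the log2 fold change of 0.52 ± 0.27 was called with the block (adjusted p = 3e-05) and not over groups (adjusted p = 0.196). In NDI1 cells Hmox1 was at 274, 324, 376, 438 and 444 CPM with LPS alone and 263, 296, 409, 473 and 507 CPM with both. The genotype difference in the drug's effect was −0.45 with the block (adjusted p = 0.0145; 9.51% of all genes called) and −0.45 ± 0.39 over groups (adjusted p = 0.66; 0.979% of all genes called, 0.818% lower and 0.16% higher). It was not called with the block without mice 496 and 503. Gclm under LPS was at 80.4, 97.4, 167, 190.2 and 252 CPM with the drug, higher in 4 of 5 WT mice by log2 ratios of up to 1.02 (mouse 496) and at −0.094 in mouse 453, with a log2 fold change of 0.57 ± 0.32 (adjusted p = 0.225, or 0.00274 with the block).

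LPS on top of piericidin A in WT cells raised 1 member (Gsr) and lowered 3 (Nfe2l2, Gclc and Srxn1), against 51.9% of all genes (25.8% higher and 26.2% lower). With the block it raised 2 and lowered 5, against 62.5%. In NDI1 cells it raised 3 (Gsr, Txnrd1 and Nfe2l2) and lowered 3 (Gclc, Gclm and Srxn1), against 61.3% of all genes (30.6% higher and 30.7% lower), the same 6 genes and directions as with LPS alone. The Srxn1 levels in WT cells fell from 269, 280.3, 349, 495 and 676 CPM with piericidin A to 128, 164, 204, 218 and 232 CPM with both, and the groups did not overlap. Its log2 fold change was −1.13 ± 0.23 (SE, adjusted p = 9.95e-05), against −0.62 ± 0.23 (SE, adjusted p = 0.0197) in NDI1 cells, and the latter call was lost without mouse 503 (adjusted p = 0.0874) or mouse 521 (adjusted p = 0.0761). With both agents, no member was called between NDI1 and WT cells over groups (12% of all genes called, 5.86% higher and 6.13% lower). The Nfe2l2 difference was 0.39 ± 0.14 (SE, adjusted p = 0.0702), and that of Gsr 0.42 ± 0.19 (SE, adjusted p = 0.14).

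Of 15 tested regulators, 6 rose and 2 fell with LPS in WT cells (median log2 fold change 0.027), 3 rose and 1 fell with piericidin A (median 0.13), and 2 rose with piericidin A under LPS. These and the list counts that follow stand against the shares of all genes given above, 62.5% for LPS in WT (72% with the block), 14.8% for piericidin A (34.2%) and 16.7% for piericidin A under LPS (34.5%). In NDI1 cells 0 of 15 was called with piericidin A in either setting. Keap1, the sensor that targets NRF2 for degradation, rose with LPS by 1.50 ± 0.11 (SE, adjusted p = 1.98e-14) in WT and by 1.52 ± 0.11 (SE, adjusted p = 1.37e-14) in NDI1. With piericidin A alone it went from 51.4, 51.7, 52.7, 54.3 and 64.9 CPM to 40.3, 40.6, 40.7, 41.1 and 44.7 CPM in WT cells. The groups did not overlap, and the log2 fold change was −0.41 ± 0.11 (SE, adjusted p = 0.01005), with adjusted p = 0.087 without mouse 496.

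Bach1, the heme-sensitive repressor that occupies antioxidant response elements, stood out in 1 of the 8 groups. It was at 289, 389, 532, 773 and 781 CPM in WT cells given both agents and at 146 to 248 CPM in the libraries of the other 7 groups. Every WT value with both agents lay above all of those. Piericidin A under LPS raised it by 1.42 ± 0.18 (SE, adjusted p = 1.16e-06) in WT, and with both agents the NDI1 level was lower than the WT level (log2 difference −1.38 ± 0.18, adjusted p = 3.21e-06). The genotype difference in the drug's effect under LPS was −1.25 ± 0.25 (SE, adjusted p = 0.00683). That call was lost without mouse 496 (adjusted p = 0.0609), mouse 520 (0.065), mice 496 and 503 (0.119) or mice 520 and 521 (0.137).

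Maff and Mafk, small MAF partners of NRF2, rose with piericidin A in WT cells by 2.70 ± 0.46 (SE, adjusted p = 7.07e-05) and 0.94 ± 0.15 (SE, adjusted p = 2.57e-05), and with LPS by 2.26 and 2.65. The genotype difference in the piericidin A effect was −2.60 ± 0.65 (SE, adjusted p = 0.032) for Maff and −0.86 ± 0.21 (SE, adjusted p = 0.0241) for Mafk. Both calls were lost without either pair of mice named above, Maff at adjusted p = 0.0663 and 0.186 and Mafk at 0.205 and 0.196.

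**Figure D4:**
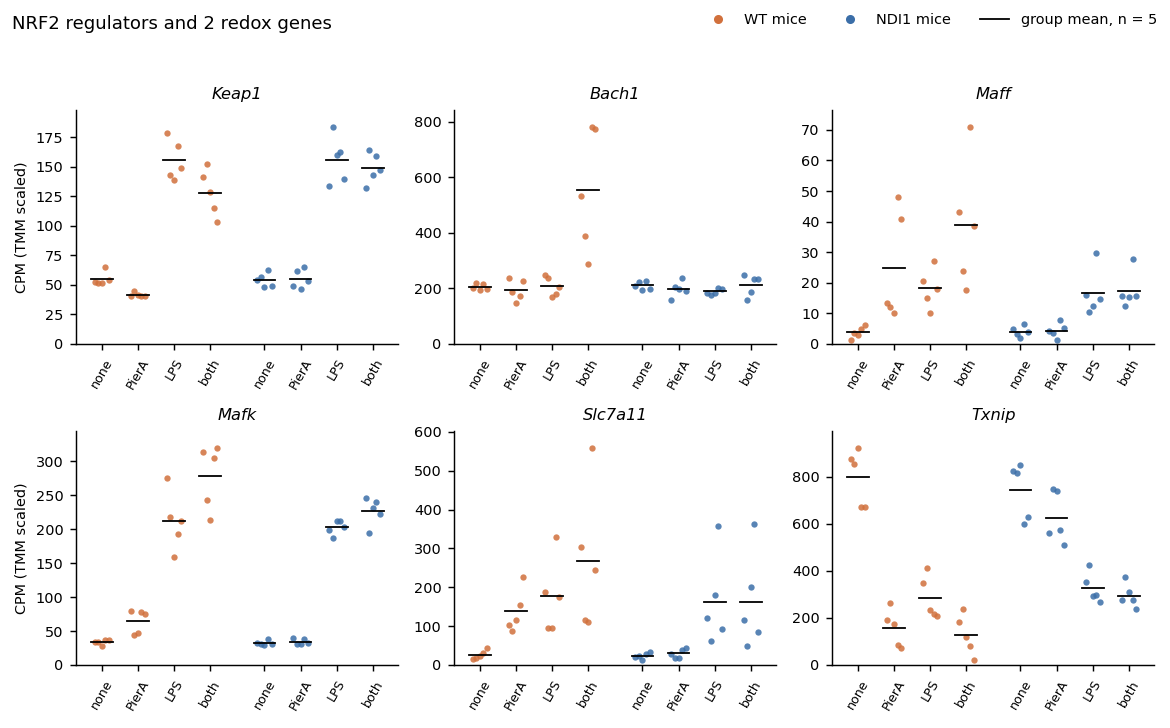
Level of 6 other genes of the pathway in every library (TMM-scaled CPM, linear axis from 0): Keap1, Bach1, Maff and Mafk, which control NRF2, the cystine transporter gene Slc7a11 and Txnip, an inhibitor of thioredoxin. Points are mice and bars group means; Bach1 in WT cells given piericidin A and LPS (289 to 781 CPM) lies above all other groups (146 to 248 CPM).

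Among 32 other genes of glutathione synthesis, use and export, 9 rose and 4 fell with LPS in WT cells (median log2 fold change 0.092), and 4 rose and 1 fell with piericidin A (median 0.26; 14 and 2 with the block). With LPS the largest rise was that of Ggct, a gamma-glutamylcyclotransferase (2.90 ± 0.23, adjusted p = 1.32e-13), and with piericidin A that of Chac1, which breaks down glutathione (3.47, adjusted p = 0.00272), from a level of 1.31 ± 2.22 CPM. Slc7a11, the cystine importer that supplies glutathione synthesis, was at 15.5, 17.6, 23.7, 30.3 and 43.5 CPM untreated and 88.2, 104, 117, 154 and 226 CPM with piericidin A in WT cells. All treated values were above the untreated ones, with a log2 fold change of 2.40 ± 0.50 (SE, adjusted p = 0.000947), and LPS raised it by 2.75 ± 0.50 (SE, adjusted p = 1.14e-05). Its partner chain Slc3a2 rose with piericidin A by 0.93 ± 0.14 (SE, adjusted p = 2.09e-05) and, under LPS, by 0.77 ± 0.14 (SE, adjusted p = 0.000323). The exporter gene Abcc4 fell with piericidin A (−0.84 ± 0.19, adjusted p = 0.00258).

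Of 21 other thioredoxin and peroxiredoxin genes, 9 rose and 6 fell with LPS in WT (median log2 fold change 0.12), and 3 rose and 3 fell with piericidin A (median 0.22; 7 and 3 with the block). Prdx6 rose with piericidin A by 0.74 ± 0.14 (SE, adjusted p = 0.000413), whereas Txnip, which binds and inhibits thioredoxin, fell from 671, 672, 855, 875 and 921 CPM to 71.1, 84.5, 174, 191 and 262 CPM. The Txnip groups did not overlap, and the log2 fold change was −2.35 ± 0.35 (SE, adjusted p = 1.01e-05). Sesn1, a sestrin, fell by 2.10 ± 0.24 (SE, adjusted p = 5.79e-08). The genotype difference in the drug's effect was 2.10 ± 0.47 (SE, adjusted p = 0.0133) for Txnip (adjusted p = 0.101 without mice 496 and 503) and 1.93 ± 0.32 (SE, adjusted p = 0.000377) for Sesn1.

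Of 27 genes of quinone, aldehyde and heme handling, 4 rose and 11 fell with LPS in WT (median log2 fold change −0.21), 3 rose with piericidin A (median 0.16; 9 rose and 1 fell with the block) and 5 rose with piericidin A under LPS (9 with the block). The ferritin subunits Fth1 and Ftl1, which store the iron that heme oxygenase frees, rose with piericidin A by 0.79 ± 0.13 (SE, adjusted p = 6.64e-05) and 0.53 ± 0.12 (SE, adjusted p = 0.00238). With LPS in WT the iron exporter gene Slc40a1 fell by 3.86 on the log2 scale (adjusted p = 2.63e-15), Osgin1 by 2.38 (adjusted p = 6.34e-08) and the carbonyl reductase gene Cbr3 by 1.92 (adjusted p = 1.23e-08).

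Of 17 genes of NADPH supply, 3 rose and 5 fell with LPS in WT (median log2 fold change −0.24), and 1 rose and 1 fell with piericidin A (median −0.013; 4 each way with the block). Of 10 scavenger receptor and autophagy genes, 1 rose and 5 fell with LPS in WT (median −0.30), none was called with piericidin A (median −0.044; 3 rose with the block), and 2 rose and 1 fell with the drug under LPS. Those that rose were Nbr1, another autophagy receptor (0.65, adjusted p = 0.00758), and Gabarapl1 (0.64 ± 0.14, adjusted p = 0.00144), which like Sqstm1 acts in autophagy. Of 11 genes of superoxide production and removal, 7 rose and 1 fell with LPS in WT. The largest rise was that of Nos2, the inducible nitric oxide synthase, from 0.211 ± 0.135 to 1150 ± 214.5 CPM (SD, n = 5), followed by Nox1, an NADPH oxidase whose exons share bases with Cstf2, from 0.234 ± 0.272 to 5.32 ± 2.43 CPM. Next came Sod2 (2.98 ± 0.39, adjusted p = 2.33e-08), the mitochondrial superoxide dismutase, and the gene that fell was Cat (−0.52 ± 0.17, adjusted p = 0.00726), the peroxisomal catalase. The median log2 fold change of the 11 was 0.41, and with piericidin A in WT 1 of them, Nos2, rose (median 0.10).

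The stress program of ATF4 shares some targets with NRF2. Of its 19 genes, 14 rose and none fell with piericidin A in WT cells, and the median log2 fold change was 1.32, against 0.38 for the 10 members and 14.8% of all genes called. Gdf15 rose by 4.21 ± 0.47 (SE, adjusted p = 6.28e-08), and Atf4 itself by 1.34 ± 0.26 (SE, adjusted p = 0.000369), the latter named after its values were seen. Under LPS, 5 of the 19 rose (median 0.46). In NDI1 cells 0 of 19 was called with the drug in either setting. The genotype difference was called at 3 of 19 without LPS (Gdf15, Atf3 and Ppp1r15a), against 1.27% of all genes (1.1% lower), and at 13 with the block, against 8.96% (5.15% lower), and all of these were lower in NDI1 than in WT cells. Without mice 496 and 503 the count over groups was 1 of 19, against 0.607% of all genes. This list includes Slc7a11, Chac1, Sesn2 and Mthfd2, which are also on the lists above.

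Several members differed from mouse to mouse alike under all treatments. Taking each library's deviation from its group mean on the log2 scale, WT mouse 520 was high at Prdx1 (mean deviation 0.70 over its 4 libraries), Gclm (0.70) and Sqstm1 (0.67). NDI1 mouse 521 was high at Prdx1 (0.72) and Sqstm1 (0.65). Low values came from NDI1 mouse 460 at Gclm (−0.81) and Txnrd1 (−0.68), and from WT mouse 452 at Gclm (−0.65) and WT mouse 453 at Hmox1 (−0.71). The deviations had the same sign in all 4 libraries of each of these mice, so high and low mice stayed so under every treatment.

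**Figure D5:**
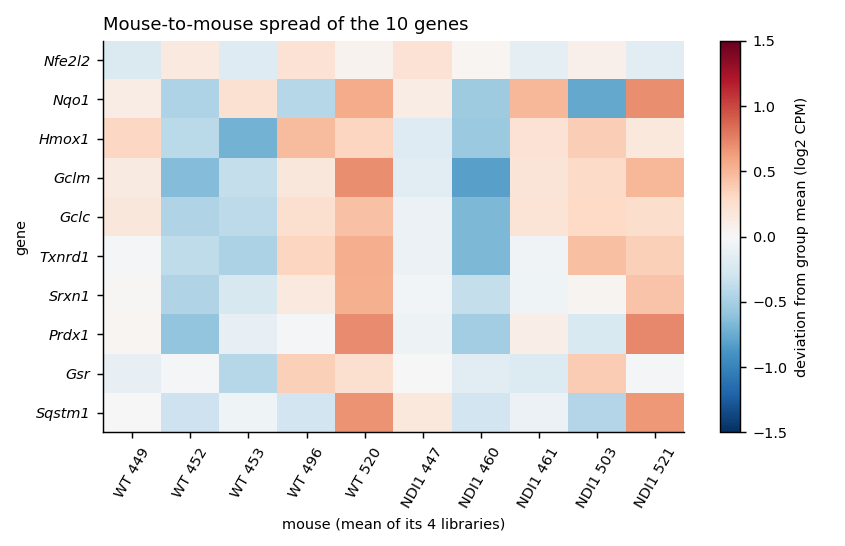
Mean deviation of each mouse from its group means (log2 CPM) for the 10 members, over the 4 libraries of the mouse, as colour from blue (below) to red (above). Mice 520 and 521 lie high at Prdx1 and Sqstm1 (0.65 to 0.72), and mouse 460 lies low at Gclm (−0.81).

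Across the 40 libraries, which share mice, these deviations were most alike for Gclm and Gclc (Pearson r = 0.91), Gclm and Txnrd1 (0.89), Gclm and Srxn1 (0.885) and Prdx1 and Sqstm1 (0.86), given as descriptions. LPS lowered Gclm and raised Txnrd1, and over all libraries, group differences included, their r was 0.011. The highest r of Nfe2l2 with another member was 0.60, with Gsr.

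The genes outside the list with the most similar pattern over the 40 libraries, given by Pearson r of log2 CPM as a description, differed from member to member. For Gclm they were Lipa (0.94), Dnajb9 (0.89) and Camk1 (0.88), for Srxn1 Yars (0.92), Spg21 (0.90) and Slc25a33 (0.90), and for Txnrd1 Ptges3 (0.94), Rab32 (0.94) and Ddx17 (0.93). For Hmox1 they were Mylip (0.88), Cd300ld (0.87) and Igf1 (0.86), and for Nqo1 Gsto1 (0.81), Me1 (0.77) and Adss (0.77). After the group means were subtracted, the nearest gene was Cd36 for Gclm (0.91), Pgd for Srxn1 (0.88), Rab32 for Txnrd1 (0.95), Igf1 for Hmox1 (0.92) and Rnf128 for Nqo1 (0.87). Me1 and Gsto1 were close to Nqo1, which had low counts.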

How the data were processed

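Processed values were the authors' counts of reads per gene for the 40 libraries, deposited as 1 unnormalized table of raw counts. Per the labels and the study's methods, libraries were made with NEBNext polyA selection, reads were trimmed with Trimmomatic, aligned to mm10 with STAR and assigned to exons with HTSeq after bcl2fastq. The annotation release and the strand setting are not given in the sources used here. Libraries were matched to mice and treatments by their titles, and 1 count column without a sample was not used. The members and gene lists were chosen with earlier results of these data known.

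Each comparison was a contrast of 1 edgeR (version 4.0.16, R 4.3.3) quasi-likelihood fit of all 40 libraries with a mean for each of the 8 groups, TMM factors and the filterByExpr filter, which kept 11853 of 43430 genes. Genes were called at a Benjamini-Hochberg adjusted p under 0.05 over all tested genes, and errors are the log2 fold change divided by the square root of F. CPM values use TMM-scaled library sizes. Levels per kilobase use merged exon lengths of an mm10 annotation, because the deposited length exceeded the gene's span for 1982 genes. The fit was run on simulated counts drawn independently for each library. These held no effect of the mouse, so they cannot check the fit where libraries share mice.

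A fit with the mouse as a block is given beside results it changes. The 4 libraries of a mouse share its number in the titles, and their deviations from group means correlated in 60 pairs (mean r 0.45, from 0.099 to 0.77). Over 240 pairs of different mice, of the same genotype and different treatments, the mean was −0.11. Subtracting the group means largely sets that value, so it is no separate evidence for the pairing. Each group holds 5 separate mice, so p-values over groups rest on the spread between libraries of different mice. That fit treats the 4 libraries of a mouse as independent and ignores their pairing. In the fit with the block, p-values measure the spread within mice. Outside the members, genes of the lists were named from among the 4 called genes with the largest rise or fall in a comparison. Atf4 was instead chosen after its values were seen, and the markers Lck, Cd3d and Cd209a for their detection or level. Genes of similar pattern were named by their Pearson r with a member, and neighbouring genes for shared exon bases. Alternatives were RLE factors, DESeq2 (version 1.42.0), other filters, fits on the compared libraries, each mouse left out, and 4 fits without 2 mice, chosen after seeing the data.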

Additional observations from a re-analysis of the deposited data

Results flagged for a closer look

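A library was marked where its gap to the nearest of its group of 5, divided by the group's range, passed Dixon's critical value of 0.71. Of 128 groups examined, 8 did, where chance alone gives about 1 in 20. Among the members, Prdx1 in untreated NDI1 cells was 1515.2 CPM in mouse 521 and 734.0 to 843.1 CPM in the others. Gsr in NDI1 mouse 503 was 320.4 CPM with LPS (others 208.9 to 230.8) and 303.4 CPM with both agents (others 199.3 to 227.5). Sqstm1 in WT mouse 520 was 3022.7 CPM untreated (others 1436.6 to 1858.2) and 5230.0 CPM with piericidin A (others 2295.7 to 2693.2). Among regulators, Keap1 was 64.86 CPM in untreated WT mouse 496 (others 51.36 to 54.31) and 44.74 CPM in WT mouse 452 with piericidin A (others 40.29 to 41.13). Maff was 27.62 CPM in NDI1 mouse 503 with both agents (others 12.53 to 15.82).

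Effects of piericidin A that differed between NDI1 and WT by the test of the difference itself were marked as well. Among the members, with the mouse as a block, these were, without LPS, Nfe2l2 at −0.72 (adjusted p = 0.00127), Srxn1 at −0.67 (adjusted p = 0.0127) and Sqstm1 at −0.56 (adjusted p = 0.0169), and under LPS, Hmox1 at −0.45 (adjusted p = 0.0145) and Gsr at 0.46 (adjusted p = 0.0438), all on the log2 scale as NDI1 minus WT. For genes outside the members only the differences called over groups are listed here, and not those called with the block alone. Of the genes named in the report these were, without LPS, Maff at −2.60 (adjusted p = 0.032), Mafk at −0.86 (adjusted p = 0.0241), Slc3a2 at −0.81 (adjusted p = 0.0298), Gdf15 at −3.70 (adjusted p = 0.000374), Atf3 at −1.44 (adjusted p = 0.0419), Ppp1r15a at −1.18 (adjusted p = 0.0288), Txnip at 2.10 (adjusted p = 0.0133) and Sesn1 at 1.93 (adjusted p = 0.000377). Under LPS they were Bach1 at −1.25 (adjusted p = 0.00683), Gdf15 at −2.58 (adjusted p = 0.031) and Ddit4 at −2.92 (adjusted p = 0.0244).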

How the results depend on the processing

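Scaling by RLE factors changed no call of a member (170 of 170 values). DESeq2 added 2 calls, among them 1 member for the genotype difference in the piericidin A effect (Nfe2l2). Numbers below count the members called, out of 10, each followed by the share of all genes called in the same fit. For piericidin A in WT (2 called, 14.8%) the count was 1 in a fit on the compared libraries only (12%), 6 with the replicate block (34.2%), 1 without mice 496 and 503 (7.66%) or 5 with the block (22.8%), and 6 with the block without mice 520 and 521 (23.7%). Leaving out each mouse in turn gave 1 to 2, the low value without mouse 496 (6.71%). For piericidin A under LPS in WT (2 called, 16.7%) it was 0 without a filter on low counts (5.89%), 1 of the 9 members left with at least 10 counts in every library (19.5%), 0 on the compared libraries (6.46%), 6 with the block (34.5%), 0 without mice 496 and 503 (8.07%) or mice 520 and 521 (7.46%), 4 with the block in each case (22.4% in both), and 0 to 2 with 1 mouse left out, with 0 without mouse 449 (12.3%), 496 (7.16%) or 520 (7.12%). For LPS on top of piericidin A in WT (4 called, 51.9%) the block gave 7 (62.5%), and also without mice 496 and 503 (59.5%) or 520 and 521 (59.7%). For NDI1 against WT with piericidin A (2 called, 7.8%) it was 1 on the compared libraries (3.77%), 1 without mice 496 and 503 (3.86%), and 1 to 2 with 1 mouse left out, with 1 without mouse 460 (5.27%), 461 (5.18%), 496 (5.32%) or 520 (4.96%). For the genotype difference in the piericidin A effect (0 called, 1.27%) it was 1 with DESeq2 (2.48%), 3 with the block (8.96%), 1 with the block without mice 496 and 503 (3.33%), 2 with the block without mice 520 and 521 (3.77%), and 0 to 1 with 1 mouse left out, with 1 without mouse 453 (1.51%). Under LPS (0 called, 0.979%) that difference gave 2 with the block (9.51%) and 1 with the block without mice 520 and 521 (2.09%). For how piericidin A altered the response to LPS in WT (1 called, 4.75%) the block gave 3 (17.4%), 3 without mice 496 and 503 (8.21%) and 2 without mice 520 and 521 (8.42%). No direction reversed among called members, the block ended no call of a member, and the LPS counts kept within 1.5 times. Alternatives without 2 mice were chosen after seeing the data, and the cause of these shifts was not tested.

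Nqo1 had 8 to 92 counts per library and mean deviations of −0.77 to 0.70 between mice (log2), and the parts of depth and of the mice in its wide intervals were not tested. All values are mRNA levels of mixed cultures at 1 time point, and promoter windows were at hand for 7 of 10 members.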
